A study of Homo sapiens with 6 samples.

Results

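The genes described here encode kinases, cyclins and phosphatases that act on the C-terminal tail of RPB1, the largest subunit of RNA polymerase II. They were 10 named genes (CDK7, CCNH, MNAT1, CDK12, CDK13, CCNK, CTDP1, CTDSP1, SSU72 and RPAP2), out of 16428 genes that had a region in any of the lists. Their regions were the rows of the 4 deposited region lists that the authors had assigned to these gene names. This gave 362 of 271336 regions, of which 21 of 46045 were in the WT RPB1 list, 21 of 41605 in the SHP-1 KO RPB1 list, 171 of 102674 in the WT pSer2 RPB1 list and 149 of 81012 in the SHP-1 KO pSer2 RPB1 list.

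The data were ChIP-seq libraries of HepG2 cells, an untreated human hepatoma line, and each antibody and genotype had 1 library. The control cells were labelled WT, and the SHP-1 KO cells carried a CRISPR knockout of PTPN6, the gene of the tyrosine phosphatase SHP-1. The authors describe single cell clones of both kinds, made by transfection and selection, with a nontargeting guide for the controls. The clones that were sequenced are not given in the sources used here. One antibody recognized RPB1 and the other RPB1 phosphorylated at serine 2 of the tail repeats (pSer2). A region is a stretch that MACS2 called over the input DNA of the same cells, and its value is a ratio, the fold enrichment of its highest point over that input.

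The tail of RPB1 is a row of short repeats whose serines are phosphorylated and dephosphorylated as the polymerase moves from the promoter to the end of a gene. CDK7, with cyclin H (CCNH) and MNAT1, forms the CDK-activating kinase of the general factor TFIIH and phosphorylates serine 5 near the start. CDK12 and CDK13, both with cyclin K (CCNK), phosphorylate serine 2 over the gene body, and the phosphatases CTDP1, CTDSP1, SSU72 and RPAP2 remove such marks. In ChIP-seq, total RPB1 is usually most concentrated at the start of a transcribed gene and pSer2 RPB1 toward its end.

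Promoter sequences are shown for 4 genes. CCNH, SSU72 and CDK7 were among the genes called past 1.5-fold below, SSU72 and CDK7 from regions at different places. CDK13 and CTDSP1 were also called and are not shown. CDK12 held the most regions. All 10 genes had a promoter window in RefSeq on GRCh38.p14, and each sequence runs 5′ to 3′ on the strand of the gene from 210 to 11 bases before the RefSeq start. Capitals mark matches on either strand to 5 motifs, namely TATAAA as the TATA box, CCAAT as the binding letters of nuclear factor Y, GGGCGG as the core of the GC box, CGGAAGT as an ETS factor site and TGACG as part of the cyclic AMP response element.
CCNH, chr5:87412942-87413141, minus strand: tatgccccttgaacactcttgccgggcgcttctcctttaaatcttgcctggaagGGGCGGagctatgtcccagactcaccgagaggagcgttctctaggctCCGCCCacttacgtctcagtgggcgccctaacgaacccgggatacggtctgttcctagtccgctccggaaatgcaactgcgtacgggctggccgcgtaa
SSU72, chr1:1574875-1575074, minus strand: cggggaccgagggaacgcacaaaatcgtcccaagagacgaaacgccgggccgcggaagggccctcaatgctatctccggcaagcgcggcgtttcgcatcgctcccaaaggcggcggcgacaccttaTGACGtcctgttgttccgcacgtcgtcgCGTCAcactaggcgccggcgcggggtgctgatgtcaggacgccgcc
CDK7, chr5:69234585-69234784, plus strand: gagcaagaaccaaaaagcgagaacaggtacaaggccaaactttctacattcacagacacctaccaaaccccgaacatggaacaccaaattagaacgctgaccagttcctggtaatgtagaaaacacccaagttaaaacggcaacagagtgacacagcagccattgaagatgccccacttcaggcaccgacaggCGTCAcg
CDK12, chr17:39461276-39461475, plus strand: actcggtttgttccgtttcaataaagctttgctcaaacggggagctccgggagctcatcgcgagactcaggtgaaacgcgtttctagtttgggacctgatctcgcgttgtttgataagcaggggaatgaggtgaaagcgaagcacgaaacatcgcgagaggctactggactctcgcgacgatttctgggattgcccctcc

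The 4 windows differed in these letters. The CCNH window held 2 matches to GGGCGG, which 39.4% of all 35116 RefSeq windows of the same length held. The SSU72 window held 2 matches and the printed CDK7 window 1 match to TGACG, which 18.2% of all windows held. The CDK12 window held none of the 5 motifs. Of the other motifs, 8.91% of all windows held TATAAA, 28.2% CCAAT and 4.63% CGGAAGT, and none of the 4 printed windows held any of them. The printed CCNH and SSU72 windows overlap exons of noncoding genes on the opposite strand. CDK7 has 2 RefSeq windows, and the printed one ends before the upstream start. The window before the canonical start, from which the CDK7 values below were measured, is chr5:69234676-69234875, and it overlaps an exon of another CDK7 transcript and is not printed. It held 2 matches to the cyclic AMP response letters, 1 to the GC box core and 1 to the ETS factor site. A TGACG match on both strands of a palindrome would count as 2, and no match in the printed windows overlapped another. RPB1 regions covered the whole CCNH, SSU72 and CDK12 windows in both genotypes and the printed CDK7 window in part. The canonical CDK7 window was covered whole in WT cells and in part in SHP-1 KO cells.

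The libraries could be compared as lists but not tested. The lists hold no counts, so depth is unknown, and with 1 library per antibody and genotype no difference has a replicate check. The median KO to WT ratio of start regions over all genes was 0.727 for RPB1 and 0.958 for pSer2 RPB1, so each ratio below is also given relative to that median. Of 8 HepG2 marker genes, among them ALB and APOB, 7 had a promoter region in each list. The missing gene was FGB in the SHP-1 KO pSer2 RPB1 list and APOA1 in the other lists. At the start of PTPN6, the RPB1 fold enrichment was 24.0 in WT cells against 17.2 in SHP-1 KO cells, and the pSer2 RPB1 value was 4.03 against 5.24, which does not measure the SHP-1 protein.

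RPB1 was found at the start of all 10 genes in both genotypes when regions were taken by position. By the authors' gene names, 6 genes had a promoter region, which always lay within 1 kb of an annotated transcript start, in the WT RPB1 list and 7 in the SHP-1 KO RPB1 list. CCNK, CTDP1 and RPAP2 had none by name in either list, because the region over their start was assigned to the neighboring genes SETD3, LOC284241 and GLMN. For CTDSP1, the WT region was assigned to MIR26B, a microRNA gene inside CTDSP1. Taken by position, within 1 kb of the start of the GENCODE canonical transcript, the fold enrichments ranged from 15.9 (CDK7) to 52.5 (CDK13) in the WT and from 8.56 (CCNH) to 53.8 (CTDSP1) in the SHP-1 KO list.

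Among the 3 genes of the CDK-activating kinase, CCNH differed most between the genotypes in RPB1 at its start. The gene of the cyclin that the kinase needs for its activity lies on chr5:87318416-87412930 on the minus strand. In WT cells its start carried a region at chr5:87412016-87413326 with a fold enrichment of 21.4 (rank 8042 of 46045), with the summit in the first exon. In SHP-1 KO cells the same stretch was called as 2 regions, the stronger at chr5:87412426-87413465 with a fold enrichment of 8.56 (rank 12594 of 41605) and the other with 6.55. The KO to WT ratio was 0.4, and relative to the median of all genes 0.55. A second WT region in intron 5, with a fold enrichment of 4.31, had no SHP-1 KO region over it. A noncoding gene on the opposite strand (chr5:87412342-87499340) starts inside the WT start region. Its signal and that of CCNH cannot be told apart.

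The other subunits of this kinase did not share that pattern. CDK7, the catalytic subunit on chr5:69234795-69277430 (plus strand), had a start region with a fold enrichment of 15.9 in WT (chr5:69234644-69235260) and 16.1 in SHP-1 KO cells (chr5:69234702-69235212). Relative to all genes its ratio was 1.40. MNAT1, the assembly factor on chr14:60734742-60969965 (plus strand), had 1 region in each RPB1 list, with a fold enrichment of 19.9 in the WT and 15.0 in the SHP-1 KO list and a relative ratio of 1.03. CDK7 and CCNH lie on the same chromosome, and genes within 5 Mb of CCNH had a median relative ratio of 0.919 (10 genes, of which 0 were lower past 1.5-fold), against 1.12 around CDK7 (34 genes, of which 2 were lower). Of all 11488 genes taken by position, 8.59% were lower past 1.5-fold.

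CDK12 and CDK13 had the highest RPB1 values of the 6 genes that could be compared by name. At CDK12 (chr17:39461486-39567559, plus strand) the fold enrichment was 42.6 in WT (chr17:39461164-39463158, rank 2757) and 35.0 in SHP-1 KO cells (chr17:39461174-39462919, rank 1976), a relative ratio of 1.13. At CDK13 (chr7:39950121-40099580, plus strand) it was 52.5 in WT (rank 1463) and 34.2 in SHP-1 KO cells (rank 2113), a relative ratio of 0.896. The summit at CDK13 lay upstream of the canonical start, at -432 bp in the WT and -503 bp in the SHP-1 KO list. These regions also covered the start of CDK13-DT, a noncoding gene on the opposite strand. CCNK, the cyclin of both kinases on chr14:99481169-99535044 (plus strand), shares a bidirectional start with SETD3, and the region there had a fold enrichment of 21.4 in WT cells and 12.1 in SHP-1 KO cells, a relative ratio of 0.787.

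Among the phosphatases, SSU72 had the lowest ratio and CTDSP1 the highest. At SSU72 (chr1:1541673-1574863, minus strand, on the short arm of chromosome 1), a serine 5 phosphatase, the start region was chr1:1573941-1576357 with a fold enrichment of 35.7 in the WT and chr1:1574148-1575607 with 18.2 in the SHP-1 KO list. The relative ratio was 0.702, inside 1.5-fold. A noncoding gene on the opposite strand (chr1:1574102-1577075) overlaps both start regions, and its signal and that of SSU72 cannot be told apart. The 62 genes within 5 Mb of SSU72 had a median relative ratio of 0.859. Of them 14 were lower past 1.5-fold, where 8.59% of all 11488 genes were. Their part in the SSU72 value was not tested. The WT RPB1 list assigned 9 regions to SSU72 and the SHP-1 KO list 5, and all 5 were overlapped by WT regions. Of the RPB1 regions inside the gene, 4 WT and 4 SHP-1 KO regions had their summits 13162 to 16145 bp from the start in intron 2, with fold enrichments between 4.22 and 5.84.

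CTDSP1 was covered by RPB1 nearly from end to end. This small phosphatase gene on chr2:218397136-218405941 (plus strand) hosts MIR26B in an intron. In WT cells 1 region of 8271 bp (chr2:218395811-218404081, fold enrichment 48.0) spanned the start and most of the gene, and a further region, with its summit just past the end, had 37.0. In SHP-1 KO cells the start region was chr2:218396869-218401803 with 53.8 (rank 465 of 41605), and the region with its summit past the end had 30.9. By position the relative ratio at the start was 1.56. The MIR26B and CTDSP1 signals cannot be told apart in these lists.

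RPAP2 and CTDP1 had RPB1 at starts that they share with divergent genes. At RPAP2, a serine 5 phosphatase on chr1:92299059-92402056 (plus strand), the region assigned to GLMN had a fold enrichment of 44.4 in WT cells and 37.0 in SHP-1 KO cells, a relative ratio of 1.16. RPAP2 lies on the same chromosome arm as SSU72, and the 36 genes within 5 Mb of it had a median relative ratio of 1.05. At CTDP1, also called FCP1, on chr18:79679803-79754503 (plus strand), the region assigned to LOC284241 had 34.5 in the WT and 27.5 in the SHP-1 KO list, a relative ratio of 1.11. RPB1 regions covered little beyond the start of both genes, 1.16% of the CTDP1 transcript and 0.606% of the RPAP2 transcript in WT cells.

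**Figure D1:**
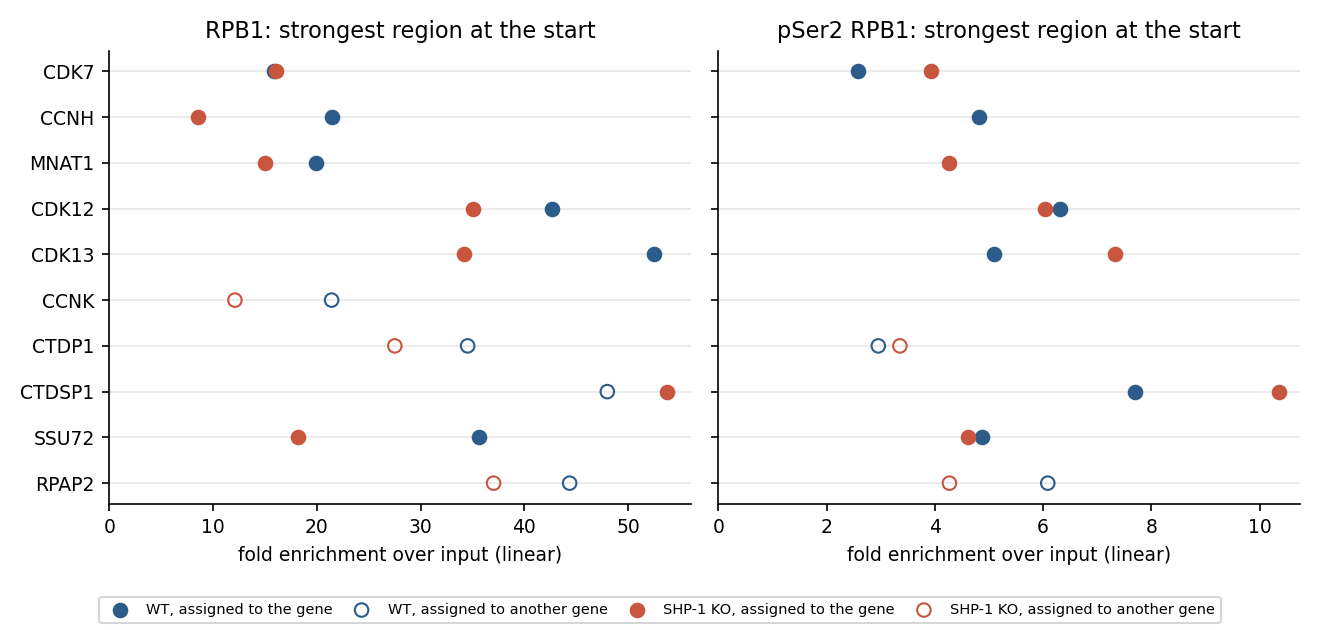
Fold enrichment over input (x axis, linear) of the strongest region within 1 kb of the canonical start of each gene, for RPB1 (left) and pSer2 RPB1 (right), with 1 library per point; open circles are regions that the authors assigned to another gene, and a missing circle means that no region was listed. For RPB1, SHP-1 KO is left of WT at 8 of the 10 genes, and CCNH moves from 21.4 to 8.56. Over all 11488 genes the upper quartile of the KO to WT ratio was 0.872, so most genes were lower too.

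The counts of genes past 1.5-fold were read against the share of all genes past it. With the authors' gene names, 1 of 6 genes (CCNH) had a lower RPB1 start region in SHP-1 KO cells past 1.5-fold of the median, where 9.29% of 11250 genes did. For higher start regions the count was 0 of 6, where 10.3% of all genes did. By position 1 of 10 genes was lower (CCNH), where 8.59% of 11488 genes were, and 1 of 10 was higher (CTDSP1), where 8.51% were. The median relative ratio was 0.965 for the 6 genes and 1.08 for the 10, and no test of the group was possible with 1 library per genotype.

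**Figure D2:**
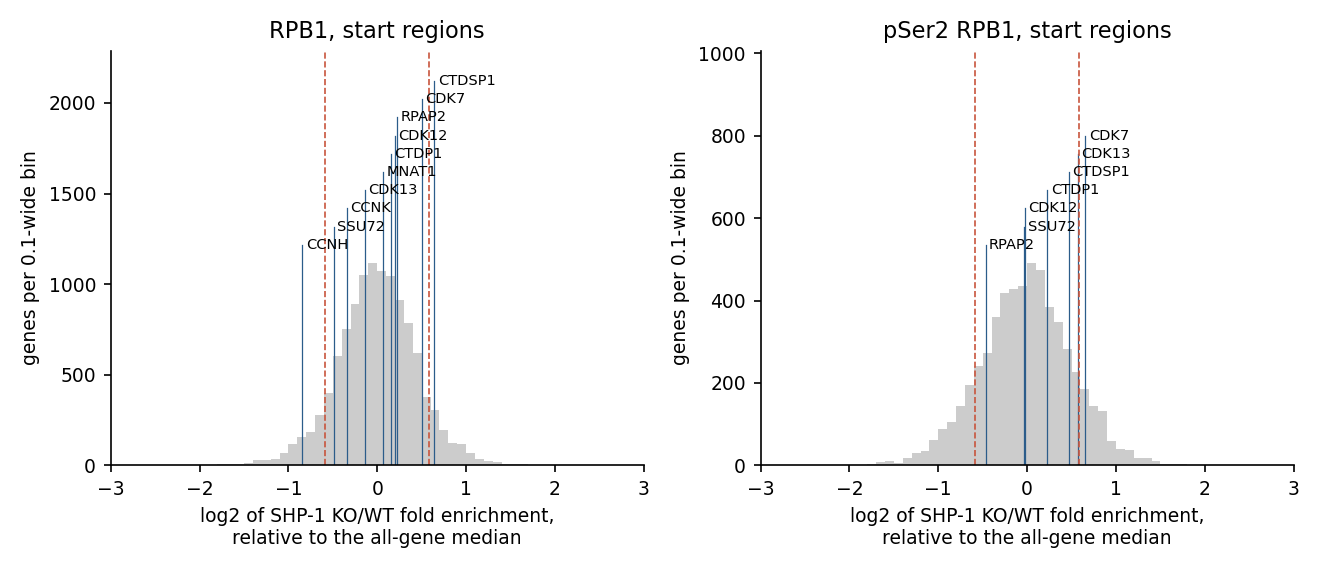
Number of genes (y axis, bins of 0.1) by the log2 ratio of the SHP-1 KO to the WT fold enrichment at the start, relative to the median of all genes (x axis), for RPB1 (left) and pSer2 RPB1 (right); named lines are the described genes and dashed lines mark 1.5-fold. For RPB1, CCNH lies left of the dashed lines and CTDSP1 right of them, and for pSer2 RPB1 CDK7 lies right of them.

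pSer2 RPB1 was spread over a few of these genes and nearly absent from others. CDK12 had 69 regions in the WT and 61 in the SHP-1 KO list, CCNH 35 and 30, CDK13 20 and 18, SSU72 18 and 21, and RPAP2 18 and 9. CDK7 had 6 and 5, CCNK and CTDSP1 2 in each, CTDP1 1 and 0, and MNAT1 0 and 1. Most of these regions lay away from promoters. Outside the promoter class lay 84.8% of the 171 regions these genes had in WT cells and 83.2% of the 149 they had after knockout, against 76.1% and 74.9% of all pSer2 RPB1 regions. The summits were mostly in introns, 108 in the WT and 96 in the SHP-1 KO list.

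The share of the canonical transcript inside pSer2 RPB1 regions separated the genes further. It was 94.9% in the WT and 94.7% in the SHP-1 KO list at CTDSP1, 57.8% and 41.7% at SSU72, and 41.6% and 36.9% at CDK12. At CCNH it was 24.1% and 16.9%, and at CCNK 23.6% and 20.3%. RPAP2 (5.54% and 2.65%), CDK13 (2.41% and 2.15%) and CDK7 (1.02% and 0.162%) were near or below the median of 10228 genes, which was 4.81% in the WT and 2.80% in the SHP-1 KO list. MNAT1 and CTDP1 were at 0 in WT cells. The share was lower in SHP-1 KO cells at 8 genes, and the median of the 10228 genes was lower there too. Those were coding genes with an RPB1 start region in both genotypes, and how many of them were lower was not counted. The depth of the 2 libraries, which sets how much is called, is unknown.

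**Figure D3:**
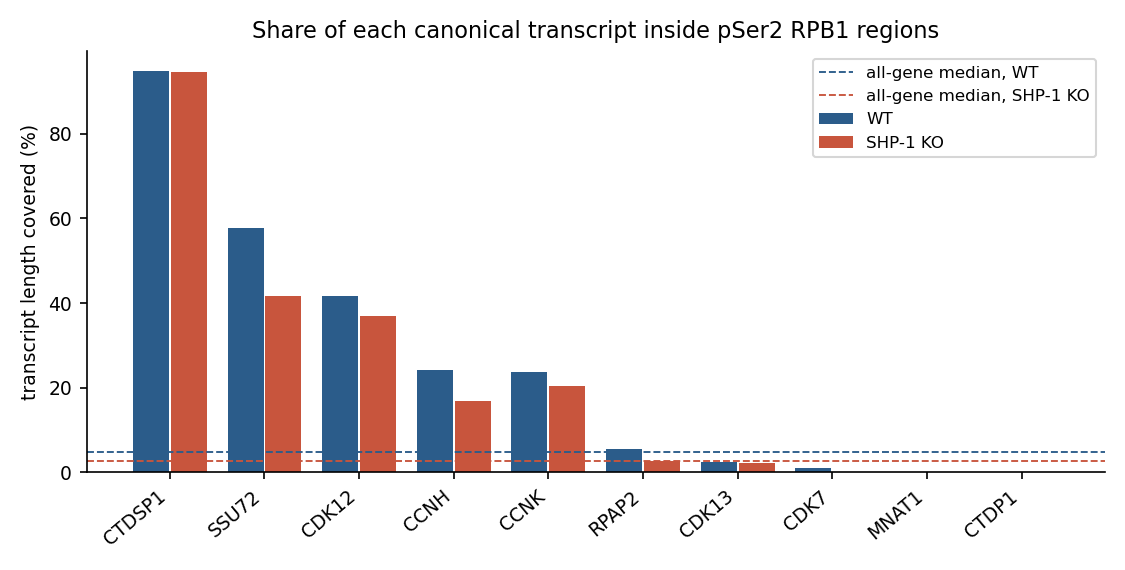
Percent of the canonical transcript (y axis) that lay inside pSer2 RPB1 regions for each gene (x axis), in WT and SHP-1 KO cells with 1 library each; dashed lines are the medians of 10228 genes. CTDSP1, SSU72, CDK12, CCNH and CCNK stand above both medians.

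CDK12 held the most pSer2 RPB1 regions of the 10 genes, spread from its start to past its end and highest at the 3′ end. The strongest region lay across the 3′ end at chr17:39532595-39537611 in WT, with a fold enrichment of 9.02 (rank 2770 of 102674), and at chr17:39531115-39537507 in SHP-1 KO cells, with 11.5 (rank 1147 of 81012). At the start the values were 6.31 and 6.03. Between these, the regions were short, and the median fold enrichment over all CDK12 regions was 3.88 in the WT and 3.65 in the SHP-1 KO list. SHP-1 KO regions overlapped 48 of the 69 WT regions. RPB1 regions inside CDK12 were few, and of the 5 WT regions only the start region was overlapped by a SHP-1 KO region.

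CDK13, which shares its cyclin with CDK12, carried fewer pSer2 RPB1 regions, and fewer of them were overlapped in the other genotype. Its start region was stronger in SHP-1 KO cells, at 7.33 (rank 4272), than in WT cells, at 5.09 (rank 16287), a relative ratio of 1.5 by the authors' gene names and 1.48 by position. The strongest WT region was in intron 9, with 5.34. Of its 20 WT regions, 5 were overlapped by a SHP-1 KO region (25%, 95% Wilson confidence interval 11.2 to 46.9, which covers counting error only). For CDK12 that share was 69.6% (57.9 to 79.2), and over all WT pSer2 RPB1 regions it was 52.2%. SHP-1 KO pSer2 RPB1 regions covered 36.9% of the CDK12 transcript and 2.15% of the CDK13 transcript. The part of this density in the overlap shares was not tested. CCNK had its strongest pSer2 RPB1 at the 3′ end, which lies inside the convergent gene CCDC85C, with a fold enrichment of 8.64 in WT cells and 7.04 at the overlapping SHP-1 KO region. These regions were assigned to CCDC85C, and ChIP does not tell the strands apart.

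SSU72 had its strongest pSer2 RPB1 inside intron 2. The region was chr1:1558220-1562112 with a fold enrichment of 11.4 in WT (rank 1424) and chr1:1558221-1561179 with 9.37 in SHP-1 KO cells (rank 2144). This is the part of the gene where RPB1 regions also clustered. The authors' promoter class also held a region near an internal transcript start at 90.3% of the canonical transcript, with 8.64 in the WT and 4.92 at the overlapping region in the SHP-1 KO list. At the canonical start the values were 4.87 and 4.61. The relative ratio at the canonical start was 0.977. Taken by name, the strongest promoter region was the internal one in WT cells (8.64) and the canonical start after knockout (4.61), and the 0.557 that this gave compares different places. In SHP-1 KO cells the signal was cut into more and shorter regions, and 20 of the 21 were overlapped by WT regions.

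CTDSP1 had the strongest pSer2 RPB1 of the 10 genes, across its 3′ end with the summit just past it. The region was chr2:218404137-218407608 with a fold enrichment of 17.3 in WT (rank 358) and chr2:218403491-218407452 with 17.8 in SHP-1 KO cells (rank 275), both assigned to MIR26B. At the start the values were 7.69 and 10.4, a relative ratio of 1.40 by name. RPAP2 differed, with 6.09 in the WT and 4.27 in the SHP-1 KO list at its shared start. Its strongest WT region was in the 3′ UTR exon (chr1:92394879-92395420, fold enrichment 6.82, rank 6452), and the SHP-1 KO region over it had 3.26 (rank 59419). Of its 18 WT regions 4 were overlapped by a SHP-1 KO region (22.2%, 9.0 to 45.2), against 52.2% over the whole WT list. SHP-1 KO regions covered 2.65% of the RPAP2 transcript, and the part of this density in that share was not tested. CTDP1 had weak pSer2 RPB1 regions upstream of its start, assigned to LOC284241, with 2.96 in the WT list and 3.35 after knockout. No pSer2 RPB1 region lay over its transcript in either list, and the 1 region assigned to it, in WT, lay past its end.

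**Figure D4:**
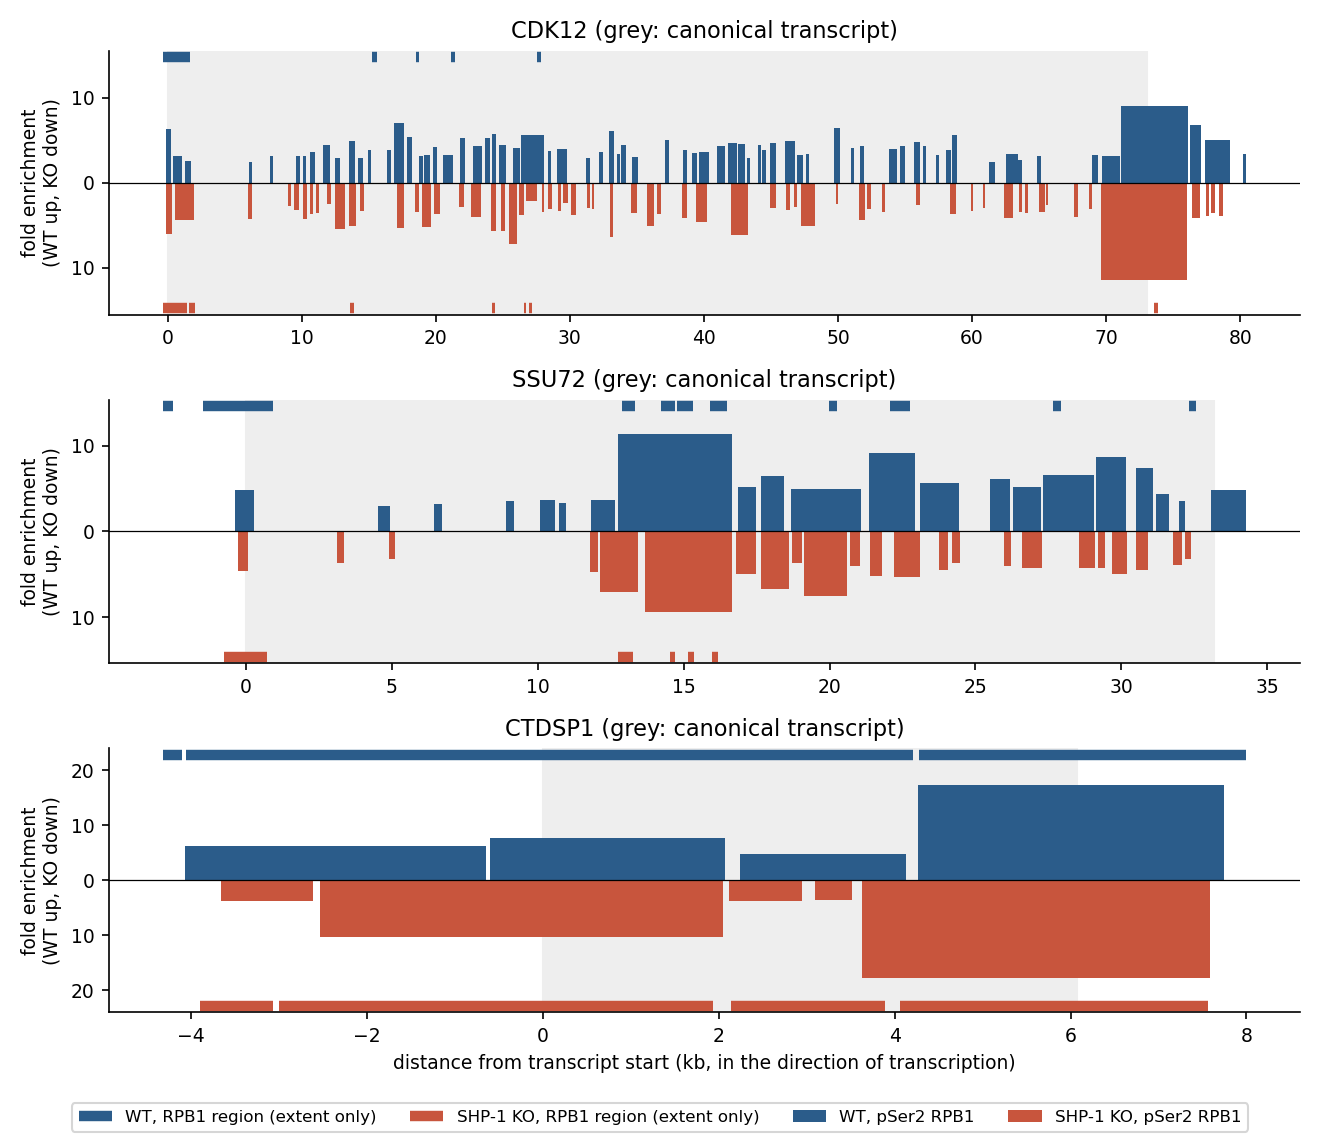
pSer2 RPB1 regions along CDK12, SSU72 and CTDSP1, with the distance from the canonical start in kb on the x axis and the fold enrichment on the y axis, WT upward and SHP-1 KO downward; bars at the edges give the extent of RPB1 regions only, and grey marks the transcript. CDK12 and CTDSP1 peak at the 3′ end and SSU72 in intron 2.

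Of the CDK-activating kinase genes, CCNH had many pSer2 RPB1 regions, but most of them lay beyond its canonical transcript. The summits of 25 of its 35 WT and 23 of its 30 SHP-1 KO regions were downstream of the canonical end, where the gene RASA1 ends on the opposite strand, and a further 21 WT and 8 SHP-1 KO regions in the CCNH gene span were assigned to RASA1. At the CCNH start, WT had a region with a fold enrichment of 4.82 (chr5:87412647-87412942) and SHP-1 KO had none within 1 kb. CDK7 had weak regions at its start, with 2.42 in WT (rank 99484) and 2.88 in SHP-1 KO cells (rank 70884). Its strongest region lay upstream, past the end of the neighbor MRPS36, with 7.97 in the WT and 7.32 in the SHP-1 KO list. MNAT1 had a single region, at the start in SHP-1 KO cells, with 4.26 (rank 28153).

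The pSer2 RPB1 differences at starts were counted in the same way. With the authors' gene names, 1 of 6 genes was lower past 1.5-fold in SHP-1 KO cells (SSU72), where 11.0% of 7191 genes were, and 2 of 6 were higher (CDK7 and CDK13), where 10.4% were. By position 0 of 7 genes were lower, where 12.9% of 5734 genes were, and 1 of 7 was higher (CDK7), where 12.1% were. No test was run, because there was 1 library per genotype. The CDK13 value came from summits inside CDK13-DT in both genotypes. Some of these values compared different places. By name, SSU72 set the internal WT region against the SHP-1 KO start region, and CCNH (inside 1.5-fold) set the WT start region (4.82) against a SHP-1 KO region in intron 7 (3.94), with its summit 13651 bp from the start. The CDK7 value compared a region with its summit at -718 bp from the start in WT (2.58) with one at -1088 bp in SHP-1 KO cells (3.94).

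The regions of these genes were also looked for in the other genotype. Of the WT RPB1 regions, 10 of 21 shared 1 bp or more with a SHP-1 KO region (47.6%, 95% Wilson confidence interval 28.3 to 67.6), against 61.9% of all WT RPB1 regions. Of the SHP-1 KO RPB1 regions 15 of 21 were (71.4%, 50.0 to 86.2), against 74.9% of all. For pSer2 RPB1 the shares were 105 of 171 WT regions (61.4%, 53.9 to 68.4), against 52.2% of all, and 110 of 149 SHP-1 KO regions (73.8%, 66.2 to 80.2), against 69.9%. The regions of 1 gene lie side by side, so they are not independent. The length covered by the RPB1 regions of the 10 genes was 16.3 kb in the WT and 16.9 kb in the SHP-1 KO list, with a median width of 435 and 323 bp. That ratio of 1.03 stood against 0.841 over the whole lists, and it left out the WT region of 8271 bp over CTDSP1, which was assigned to MIR26B. With regions taken by gene span the ratio was 0.765, and without CTDSP1 it was 0.688. For pSer2 RPB1 it was 95.1 kb and 76.8 kb, a ratio of 0.808, and the ratio over the whole lists was also 0.808.

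Other genes of tail phosphorylation gave a background for these values. Of 29 further genes (the TFIIH core, other tail kinases with their cyclins, and other phosphatases with their partners), 25 had a promoter RPB1 region in each genotype, and their median relative ratio was 1.23. RPAP3, a partner of polymerase assembly, was lower past 1.5-fold, with 74.7 in the WT and 31.3 in the SHP-1 KO list. The genes GTF2H4 (7.37 and 10.7), CDK11A (9.26 and 10.8), CTDSPL (7.81 and 9.63) and RPRD2 (16.6 and 18.6) were higher. By position CTDSPL went the other way, with 61.5 in the WT and 30.1 in the SHP-1 KO list. Its relative ratio there was 0.683, inside 1.5-fold. For pSer2 RPB1, 25 of the 29 genes had a promoter region in the WT and 23 in the SHP-1 KO list. CDK11A (8.30 and 4.27) and the cyclin gene CCNL2 (12.5 and 5.35) were lower, and GTF2H3 (3.92 and 5.77), RPRD1A (2.33 and 4.10) and RPAP3 (3.47 and 5.36) were higher. That was 2 lower and 3 higher of the 23 genes with both regions, where 11.0% and 10.4% of all genes were. By position CCNL2 (10.0 and 9.64) and GTF2H3 (6.02 and 5.88) were inside 1.5-fold, RPRD1A had no pair of start regions to compare, and SYMPK (3.56 and 6.23), which was inside it by name, was higher. CDK11A has the near-identical neighbor CDK11B, so reads there cannot be assigned with certainty. GTF2H2, which has near-identical copies, had no region in any list.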

How the data were processed

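HepG2 ChIP-seq libraries for RPB1 and pSer2 RPB1, 1 per genotype, were analysed; the 2 input libraries were not analysed here. The submitters' processing notes name Trimmomatic, BWA and MACS2 with hg38, and peaks were called by the authors per library, with the input as control. The values deposited by the authors are the fold enrichment of the summit over input, a ratio, and the −log10 q-value, with the authors' genomic class and gene name per region; versions are not given in the sources used here. The authors' comparison of SHP-1 KO with WT, with numbers of windows, p-values, adjusted p-values and directions, was not used.

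Regions were taken by gene name. The strongest promoter region per gene gave the KO to WT ratio, divided by the median over all genes with both, and past 1.5-fold either way was called. Alternatives were a −log10 q of at least 5, the gene span, distinct intervals, a promoter limit of 1 kb and 50% reciprocal overlap. Further ones were a fold of 2, list percentiles, the SHP-1 KO region overlapping the strongest WT region, and leaving out SSU72 and RPAP2. The alternatives (regions within 1 kb of the GENCODE release 44 canonical start, for counts and for ratios, and leaving out CTDSP1) were chosen after seeing the data, as were transcript coverage and neighbors. Overlap required 1 bp. Transcript coverage used transcripts of at least 5 kb, from coding genes with an RPB1 region within 1 kb of the start in both genotypes. The genes named were the 10 genes and those of a list of 29 that passed 1.5-fold or had no promoter region in any list. Neighbors that overlap or adjoin any of the 10 genes were also named. Members and lists were chosen with earlier results of these data known. Of the gene names in each list, over 99% of those in GENCODE 44 lay on the same chromosome. Overlap and ratio functions were tested on simulated data. With unknown depth and 1 library per condition, intervals cover counting error only and no p-value was computed. Python 3.11.15, pandas 2.3.3, NumPy 2.4.6, SciPy 1.17.1 and Matplotlib 3.10.9 were used. The check against markers of other cell types is not reported here.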

Additional observations from a re-analysis of the deposited data

How the results depend on the processing

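Of 84 alternative values over 26 results, 62 stayed, 18 moved and 4 turned in direction. Staying meant within 1.5 times of a count, inside a share's interval, or on the same side of no change for a median ratio. A ratio of covered lengths had to stay on that side and also near the reported value. Where no construction is named below the cause was not tested. With a −log10 q of at least 5, the regions of the genes numbered 12 in the WT and 13 in the SHP-1 KO RPB1 list and 94 and 66 in the pSer2 RPB1 lists, and 45.7% of the WT pSer2 RPB1 regions were shared. A reciprocal overlap of 50% left 38.1% of the SHP-1 KO RPB1 regions, 31.0% of those in WT pSer2 RPB1 and 35.6% of those in SHP-1 KO pSer2 RPB1 shared. Without SSU72 and RPAP2, 12 WT RPB1 regions remained, the median relative RPB1 ratio was 1.03 in place of 0.965, 0 genes were lower for pSer2 RPB1, and the KO to WT ratio of the length covered by RPB1 regions was 1.39 in place of 1.03. That length ratio was 0.765 with regions taken by gene span and 0.688 without CTDSP1, so it rests on the gene name given to the CTDSP1 start region. Taking regions within 1 kb of the GENCODE start gave 10 genes with a WT RPB1 start region, a median relative RPB1 ratio of 1.08, and for RPB1 1 gene higher; for pSer2 RPB1 it gave 0 lower and 1 higher. With a fold of 2, 0 genes were lower or higher for either antibody. A limit of 1 kb for promoters changed nothing, since that class already ended at 1 kb. Counting only distinct intervals left every count as it was. The values of both are among the 62 that stayed, and those of the 1 kb limit could not have moved. No paired analysis was possible because each group had 1 library and no result came from a test. Depth limits what can be called: the weakest regions had −log10 q-values near 1.31, and a region missing from 1 list is not evidence of absence.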
